A study of Homo sapiens with 6 samples.

Results

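Lysozyme and the proteins of azurophil granules are made by myeloid precursors, and the genes for 10 of them (LYZ, MPO, ELANE, PRTN3, AZU1, CTSG, RNASE2, CST7, SRGN and CFD) were followed in leukemia cells treated with a WNK kinase inhibitor. The genes were chosen by name, with the WNK463 and Ctrl counts of these same samples already known, so their values are given as a description and carry no test. Each of the 10 symbols matched 1 entry of a table of 20348 genes. All 10 were among the 11973 genes that passed the filter on low counts, and the lowest count of any of them in any sample was 14.

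The cells were MV4-11, an established human acute myeloid leukemia (AML) line of myelomonocytic type, and WNK463 is a small molecule that inhibits the WNK kinases. RNA-seq of bead-enriched mRNA compared 3 Ctrl samples, labelled untreated, with 3 samples treated with 1 μM WNK463, all taken at 48 h. Both groups came from this single line, and whether the Ctrl cells received the solvent is not given in the sources used here. The total counts were 17411780, 15328483 and 17246723 in Ctrl and 15824474, 16171235 and 14915745 with WNK463. The labels do not say that the replicates were separate cultures, so a p-value measures the spread between these samples, which may be technical.

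Azurophil granules are the granules that appear at the promyelocyte stage of myeloid development and are later used to kill and digest microbes. Their serine proteases (ELANE, PRTN3 and CTSG) are made as precursors, trimmed to the active form by cathepsin C and packed onto the proteoglycan serglycin. Their transcription in myeloid precursors is known to depend on PU.1, C/EBP factors, RUNX1 and MYB.

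The 10 genes did not move together. After WNK463, LYZ and MPO had 21.5% and 17.7% of their Ctrl expression, and the protease genes PRTN3 and ELANE had 41.1% and 43.6%. CTSG, SRGN and CFD were at 73.1%, 72.9% and 83.5% of Ctrl, and AZU1 and RNASE2 overlapped Ctrl. CST7 had few counts, and with TMM scaling it alone had a positive log2 fold change.

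Changes were taken from edgeR's quasi-likelihood fit over all tested genes. A gene is said to pass at an adjusted p below 0.05, and to be called when its absolute log2 fold change was also at least 1. These terms are used for genes outside the 10 only. Of all tested genes, 5.55% were called lower, 9.62% higher and 15.2% in either direction, and 35.3% passed as lower, 35.5% as higher and 70.8% in either direction. Of the 10 genes, LYZ, MPO, PRTN3 and ELANE had a log2 fold change below -1 and 0 had one above 1, and since the same contrast chose the genes, nothing is read from this count. The median log2 fold change of the 10 genes was -0.45, between -2.50 for MPO and 0.48 for CST7, beside 0.02 over all tested genes. Expression as CPM (counts per 1000000 counts of the TMM-scaled library) did not overlap between the groups for 8 genes, 7 lower and 1 higher with WNK463, as for 73.5% of all tested genes, 36.4% lower and 37.1% higher.

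The scaling of the libraries matters for the small changes. Scaling by library totals in place of TMM moved the median over the 11973 tested genes from 0.02 to 0.17 on the log2 scale, a shift of 0.15. It also changed the share of higher genes among those called from 63.4% to 76.0%. AZU1 and RNASE2 changed sign with it, from -0.09 to 0.06 and from -0.06 to 0.10, while the other 8 genes kept their direction under both scalings.

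**Figure D1:**
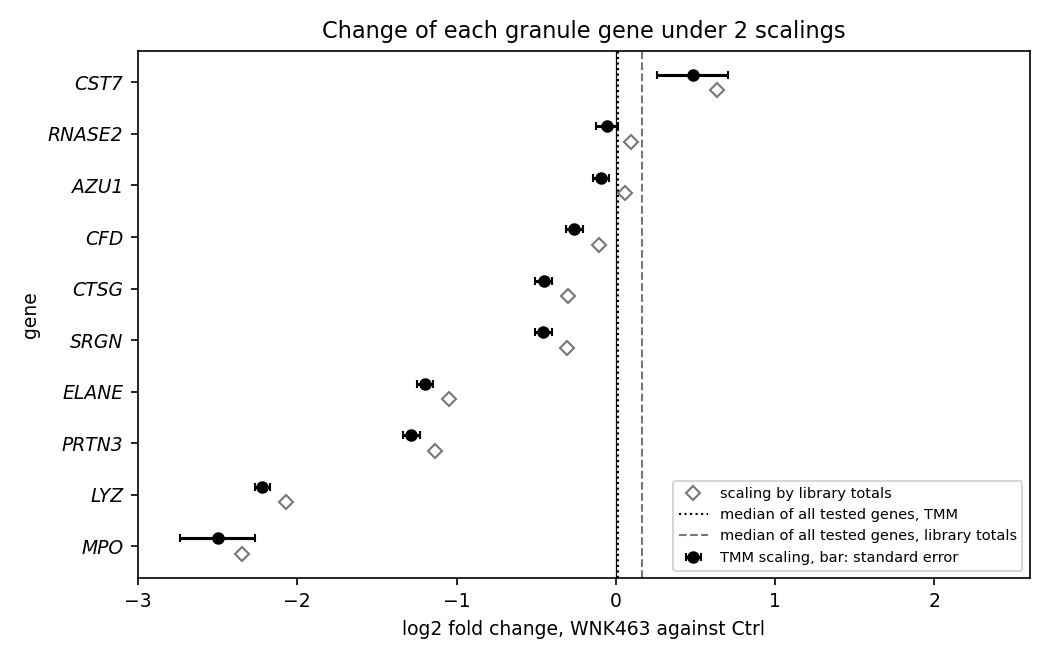
Log2 fold change of WNK463 against Ctrl (horizontal axis) for each granule gene, with TMM scaling (filled points, bars are standard errors) and with library totals (open diamonds); vertical lines mark the medians of all 11973 tested genes. LYZ, MPO, PRTN3 and ELANE lie below -1 under both scalings, and AZU1 and RNASE2 lie on different sides of 0 under the 2 scalings.

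LYZ encodes lysozyme, which cleaves the peptidoglycan of bacterial cell walls and is stored in azurophil and specific granules. LYZ (ENSG00000090382) had 21780, 19451 and 23047 counts in the 3 Ctrl samples and 4752, 4848 and 4762 counts in the 3 WNK463 samples. Every WNK463 sample was far below every Ctrl sample, and the samples of each group lay close together. In TPM, the authors' unit that is corrected for gene length, LYZ was 1641, 1684 and 1765 in Ctrl and 413, 407 and 434 with WNK463. Its log2 fold change was -2.22 (standard error 0.05), and it stayed between -2.26 and -2.20 with each sample left out. By mean TPM, LYZ ranked 77 among all genes in Ctrl and 283 with WNK463. In bulk RNA, fewer cells that express a gene and less RNA per cell cannot be told apart. LYZ lies at chr12:69348381-69354234 (GRCh38.p14). GENCODE 29 places an antisense gene over it, and the strand setting of the counting is not given in the sources used here, so reads of both could not be separated.

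The genes whose log2 CPM over the 6 samples correlated best with LYZ were, of 9005 genes compared, MBD1, HSPD1, NCAPG2, SASH1 and SEL1L3. Pearson's r exceeded 0.95 for 2316 of the genes compared, since any gene that is steadily lower with WNK463 follows LYZ over 6 samples. The log2 fold changes of the 5 genes were -0.43, -0.74, -1.14, -1.51 and -1.63, all smaller in size than that of LYZ.

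MPO encodes myeloperoxidase, the heme enzyme that makes hypochlorous acid. MPO (ENSG00000005381) had 130, 108 and 116 counts in Ctrl and 14, 31 and 20 with WNK463. The groups were well apart, but the WNK463 samples differed widely in count among themselves. The level was low in both groups, at 4.34 ± 0.167 TPM in Ctrl and 0.922 ± 0.252 TPM with WNK463 (SD, n = 3 each), the lowest of the 10 genes. Its log2 fold change was -2.50 (standard error 0.23), and it ranged from -2.81 without WNK463 replicate 2 to -2.27 without WNK463 replicate 1. On the log2(TPM + 1) scale, where the pseudocount is as large as the WNK463 level, it was -1.48.

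**Figure D2:**
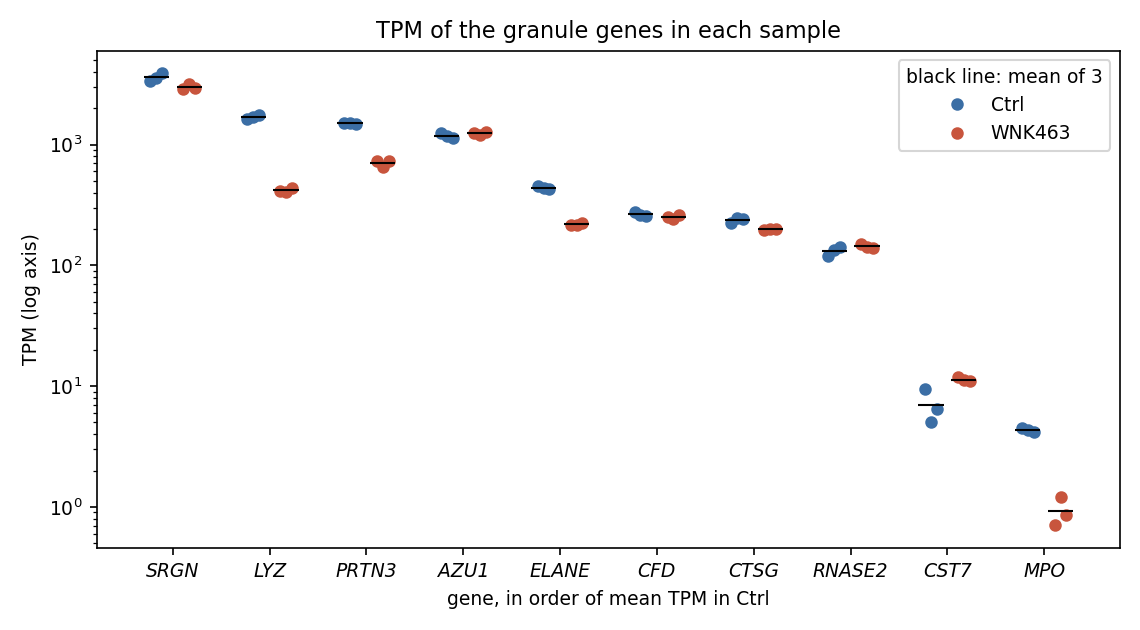
TPM of each granule gene (log axis) in the 3 Ctrl and 3 WNK463 samples; each point is a sample and the black lines are group means. SRGN was highest in both groups, LYZ moved from the second to the fourth place, and MPO was lowest in both groups.

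Among the serine proteases and their relatives, ELANE (neutrophil elastase), PRTN3 (proteinase 3) and CTSG (cathepsin G) are active proteases, AZU1 (azurocidin) has the protease fold but no catalytic activity, and CFD is factor D of the alternative complement pathway. AZU1, PRTN3, ELANE and CFD lie side by side within 35805 bases of chromosome 19, at chr19:827837-832018, chr19:840999-848175, chr19:852303-856243 and chr19:859664-863641 (GRCh38.p14). No other protein-coding gene of RefSeq lies between them, and CTSG is at chr14:24573518-24576250.

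PRTN3 (ENSG00000196415) had 13222, 11695 and 12750 counts in Ctrl and 5605, 5158 and 5352 with WNK463. ELANE (ENSG00000197561) had 3891, 3269 and 3554 counts in Ctrl and 1599, 1658 and 1608 with WNK463. For both genes every WNK463 sample was below every Ctrl sample, by a similar factor. The log2 fold change was -1.28 for PRTN3 and -1.20 for ELANE, each with a standard error of 0.05. With each sample left out they lay between -1.32 and -1.23 and between -1.24 and -1.17, and with library totals they were -1.13 and -1.05.

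AZU1, next to PRTN3 on the chromosome, did not share that difference. AZU1 (ENSG00000172232) had 10667, 8791 and 9399 counts in Ctrl and 9400, 9590 and 9188 with WNK463. The counts overlapped, with the highest in Ctrl replicate 1 and the lowest in Ctrl replicate 2, before correction for library size. The CPM values also overlapped, at 649, 603 and 573 in Ctrl and 567, 557 and 586 with WNK463. Its log2 fold change was -0.09 (standard error 0.05) with TMM scaling and 0.06 with library totals, and 4 of 14 alternatives gave the opposite sign. In TPM, AZU1 was 1181 ± 61.4 in Ctrl and 1243 ± 34.8 with WNK463 (SD, n = 3 each).

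CFD (ENSG00000197766), at the other end of the cluster, had 2885, 2372 and 2600 counts in Ctrl and 2285, 2269 and 2277 with WNK463. Its CPM values were lower in every WNK463 sample, at 138 ± 6.73 against 166 ± 8.91 (SD, n = 3 each), whereas its TPM values overlapped, at 251 ± 9.43 against 266 ± 11.2. The log2 fold change of CFD was -0.26 (standard error 0.05) and moved to -0.11 with library totals. CTSG (ENSG00000100448) had 1836, 1753 and 1957 counts in Ctrl and 1403, 1465 and 1362 with WNK463. All 3 WNK463 samples of CTSG were below the Ctrl samples, with a log2 fold change of -0.45 (standard error 0.05), or -0.30 with library totals.

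Ratios between genes of the same sample do not depend on how libraries are scaled against each other. The TPM ratio of PRTN3 to AZU1 was 1.20, 1.29 and 1.31 in the Ctrl samples and 0.584, 0.537 and 0.571 in the WNK463 samples. PRTN3 thus exceeded AZU1 in every Ctrl sample and was below it in every WNK463 sample. The ratio of ELANE to AZU1 was 0.371 ± 0.00686 in Ctrl and 0.176 ± 0.00321 with WNK463 (SD, n = 3 each). The ratio of PRTN3 to ELANE was 3.41 ± 0.105 and 3.21 ± 0.191, and its groups overlapped. CTSG and CFD were also lower relative to AZU1 with WNK463 in every sample, from 0.202 ± 0.0194 to 0.160 ± 0.00433 and from 0.225 ± 0.00289 to 0.202 ± 0.00196. The 10 genes were chosen with these values known, and no test of the ratios was made.

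**Figure D3:**
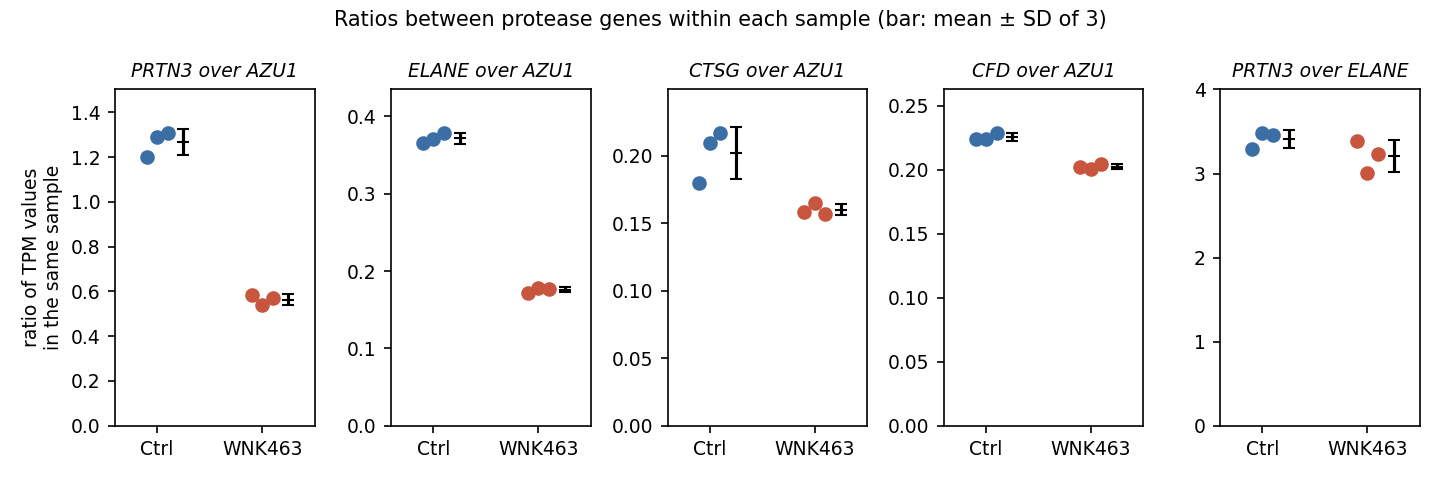
Ratios of TPM values between protease genes of the same sample (vertical axes, no unit, starting at 0) in 3 Ctrl and 3 WNK463 samples, with the mean ± SD beside the points. PRTN3 and ELANE were lower relative to AZU1 in every WNK463 sample, while the ratio of PRTN3 to ELANE overlapped between the groups.

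In the order along the chromosome, the tested genes on either side of the cluster also differed from each other. PTBP1, a splicing regulator, was 881 ± 27.0 CPM in Ctrl and 333 ± 13.4 CPM with WNK463 (SD, n = 3 each), and was called lower with -1.40 on the log2 scale (adjusted p = 5.31e-14, edgeR). PLPPR3, between PTBP1 and AZU1, had a log2 fold change of -0.92 and passed. Beyond CFD, MED16 passed as lower with -0.65 and R3HDM4 passed as higher with 0.21. AZU1 thus lay between PLPPR3 and PRTN3, which were both lower with WNK463 under both scalings. Counting the 3 nearest protein-coding genes on each side of all 10 genes gave 42 neighbours outside the 10, of which 27 were tested. Of these, 9 passed as higher and 11 as lower, and 1 was called lower (PTBP1) and 0 higher. Among all tested genes, 70.8% passed and 15.2% were called in either direction. The neighbours' median on the log2 scale, -0.06, was the value of CPSF6, which was 0.09 with library totals. The sign of CPSF6 thus changed with the scaling, and the neighbour counts given here hold for TMM scaling only.

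**Figure D4:**
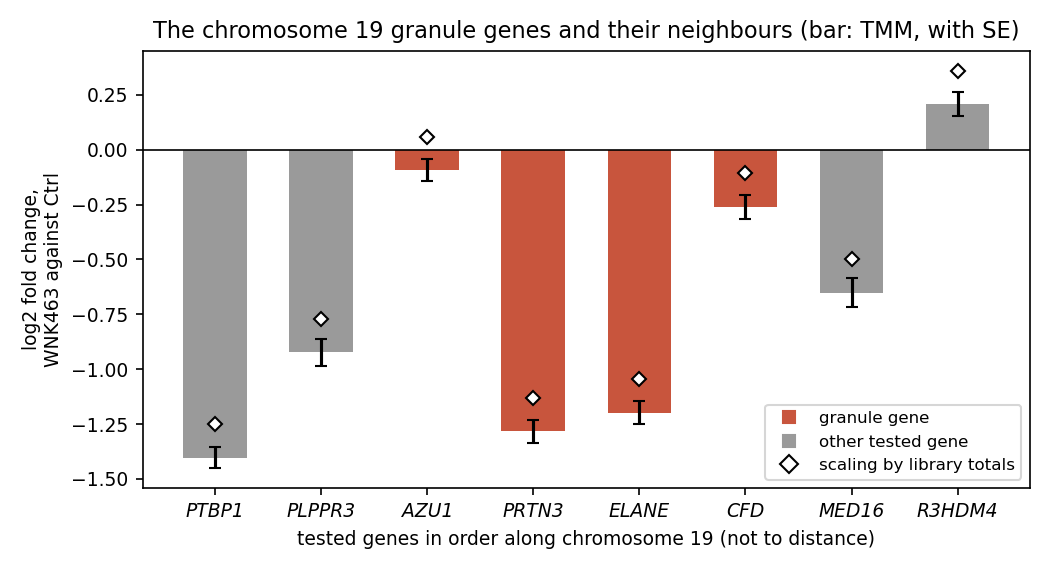
Log2 fold change of WNK463 against Ctrl (bars start at 0, error bars are standard errors, TMM scaling) for the tested genes in order along chromosome 19, with the value by library totals as diamonds; spacing is not to distance. PRTN3 and ELANE reached -1.28 and -1.20 beside AZU1 at -0.09, whose sign changes between the 2 scalings.

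The promoters of neighbouring genes that differed in their change, and of CTSG, are shown because the same myeloid factors are known to act on this gene class. The RefSeq table (GRCh38.p14) held promoters for 5 of the 10 genes, AZU1, PRTN3, CFD, CTSG and RNASE2, and not for LYZ, MPO, ELANE, CST7 or SRGN. The 180 bases before the transcription start are printed from 5′ to 3′ in the direction of transcription, for AZU1 (chr19:827657-827836, plus strand), PRTN3 (chr19:840819-840998, plus strand), CFD (chr19:859484-859663, plus strand) and CTSG (chr14:24576251-24576430, minus strand). Capitals mark GAGGAA, the core of a PU.1 motif, and TTNNGNAA, a C/EBP motif, matched on either strand.
AZU1: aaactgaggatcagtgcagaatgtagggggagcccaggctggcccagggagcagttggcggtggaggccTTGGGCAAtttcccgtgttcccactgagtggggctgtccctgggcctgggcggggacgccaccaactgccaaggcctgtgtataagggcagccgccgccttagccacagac
PRTN3: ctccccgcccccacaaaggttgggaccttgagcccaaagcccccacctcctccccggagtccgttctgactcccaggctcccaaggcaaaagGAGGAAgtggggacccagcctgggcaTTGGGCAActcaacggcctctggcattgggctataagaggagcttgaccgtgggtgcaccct
CFD: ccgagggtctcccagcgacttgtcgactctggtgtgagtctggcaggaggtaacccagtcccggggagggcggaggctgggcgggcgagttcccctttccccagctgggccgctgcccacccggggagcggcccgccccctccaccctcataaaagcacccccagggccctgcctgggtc
CTSG: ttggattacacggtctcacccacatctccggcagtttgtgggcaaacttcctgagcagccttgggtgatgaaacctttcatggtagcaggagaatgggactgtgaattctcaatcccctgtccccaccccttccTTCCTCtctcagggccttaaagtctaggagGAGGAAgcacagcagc

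Positions are counted back from the RefSeq transcription start. GENCODE 29 starts AZU1 at chr19:825097, further upstream than the chr19:827837 of RefSeq, so the AZU1 positions hold for the RefSeq start only. AZU1 and PRTN3 both held TTGGGCAA, starting at base -111 in AZU1 and -62 in PRTN3. RNASE2 held a match to TTNNGNAA on the other strand at -145. PRTN3 also held GAGGAA at -88, CTSG held it at -16 and, on the other strand, at -46, and AZU1, CFD and RNASE2 did not hold it in the 250 bases searched. GAGGAA was present in 23.6% and TTNNGNAA in 33.2% of all 35116 promoters of this length. CAACNG, a MYB motif, was present in AZU1, PRTN3 and RNASE2 and in 27.0% of all promoters, and TGTGGT, a RUNX motif, in none of the 5 genes and in 11.0% of all. All 4 motifs were searched on both strands, the marked matches overlap no other match, and a match is a description of the letters and not a binding site.

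SRGN encodes serglycin, the proteoglycan core that holds the granule proteases. SRGN (ENSG00000122862) had 36864, 33484 and 41565 counts in Ctrl and 27122, 31316 and 26618 with WNK463. Every WNK463 sample was below every Ctrl sample, but the nearest counts of the groups, 33484 and 31316, lay closer together than the samples within Ctrl. The nearest TPM values, 3383 and 3201, did so too. In CPM, corrected for library size, the nearest values, 2243 and 1820, were further apart than the Ctrl samples, which ran from 2243 to 2534. SRGN had the highest TPM of the 10 genes in both groups, 3601 ± 258 in Ctrl and 3001 ± 179 with WNK463 (SD, n = 3 each), with a log2 fold change of -0.46 (standard error 0.05), or -0.30 with library totals. The TPM ratio of LYZ to SRGN in the same sample was 0.472 ± 0.0159 in Ctrl and 0.140 ± 0.0109 with WNK463. SRGN lies at chr10:69087603-69104811, where GENCODE 29 also places a short noncoding RNA gene, whose reads could not be separated.

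RNASE2, the eosinophil-derived neurotoxin, is a ribonuclease found in myeloid granules. RNASE2 (ENSG00000169385) had 764, 744 and 891 counts in Ctrl and 844, 827 and 737 with WNK463, so the groups overlapped. Its log2 fold change was -0.06 (standard error 0.07) with TMM scaling and 0.10 with library totals. Its gene at chr14:20955487-20956436 has a close copy, RNASE3, and how reads shared by both were divided is not known. RNASE3 passed as higher, with 7.02 ± 1.20 CPM in Ctrl and 10.6 ± 0.788 CPM with WNK463 (SD, n = 3 each). The neighbouring family member RNASE6 passed as lower, with 21.0 ± 0.954 and 12.5 ± 1.16 CPM.

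CST7 encodes cystatin F, an inhibitor of cysteine proteases that acts on cathepsin C inside granules. CST7 (ENSG00000077984) had 76, 35 and 51 counts in Ctrl and 82, 80 and 73 with WNK463. The counts overlapped, and the CPM values were only just apart, with 4.63 in Ctrl replicate 1 and 4.65 in the lowest WNK463 sample. The log2 fold change was 0.48 (standard error 0.22), 0.77 without Ctrl replicate 1 and 0.29 without Ctrl replicate 2, so single Ctrl libraries set its size. With library totals it was 0.64. CST7 lies at chr20:24949269-24959928 and MPO at chr17:58269855-58280935.

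In TPM the order in Ctrl was SRGN, LYZ, PRTN3, AZU1, ELANE, CFD, CTSG, RNASE2, CST7 and MPO. With WNK463, AZU1 stood second, above PRTN3 and LYZ, and CFD stood above ELANE. The neighbours in these orders that were closest by ratio were CFD (266 ± 11.2 TPM) and CTSG (238 ± 12 TPM) in Ctrl, and ELANE (218 ± 6.04 TPM) and CTSG (199 ± 2.03 TPM) with WNK463. All neighbours in both orders were apart by more than the SD of either gene. Together the 10 genes took 0.539% ± 0.0147 of all counts in Ctrl and 0.346% ± 0.00945 with WNK463 (SD, n = 3 each).

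Genes outside the 10 that act in the same granules, or make, sort, load and regulate their contents, were taken from 12 lists. Of 96 tested genes on these lists, 43 passed as higher and 24 as lower, 69.8% in all, and 15 were called higher and 2 lower, 17.7% in all. Their median log2 fold change was 0.12, or 0.28 with library totals, where 56 passed as higher and 16 as lower. These shares stand beside 70.8% passed and 15.2% called of all tested genes. With a filter of at least 10 counts in every sample, 7 of 84 list genes were called higher and 2 lower, 10.7% in all, beside 11.2% of all genes tested that way. Of the 67 passes on the lists, 59 held with each sample left out (88.1%, beside 85.2% of all passes).

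Of 8 tested genes for other azurophil granule proteins, 5 passed as higher and 3 as lower, with a median log2 fold change of 0.22, or 5 and 2 with library totals. For 3 of the 8 the pass ended with a sample left out. The 1 called lower was PRSS57, which encodes the neutrophil serine protease NSP4, a relative of elastase and proteinase 3. PRSS57 had 77.3 ± 5.22 CPM in Ctrl and 26.4 ± 1.38 CPM with WNK463 (SD, n = 3 each). It fell by 1.55 on the log2 scale (standard error 0.07, adjusted p = 2.39e-12, edgeR), and all 3 WNK463 samples were below all 3 Ctrl samples. It lies at chr19:685546-695452, 132 kb from AZU1 on the same chromosome. MANBA, a lysosomal mannosidase, was called higher with 1.04, a call that ended without Ctrl replicate 3 (0.96). The 4 alpha-defensin genes on the list, a main product of mature azurophil granules, were at 0 counts in all 6 samples, and 3 counts, the limit that a count of 0 allows, correspond to at most 0.206 CPM in a sample.

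The granules formed later in neutrophil development are the specific and gelatinase granules. Of their 21 genes, 6 were at 0 in all samples, among them LTF (lactoferrin) and MMP8, and 5 were tested, of which 4 were called higher and 1 passed as lower. Of all tested genes, 9.62% were called higher. With at least 10 counts in every sample, 2 of 3 tested genes of this list were called higher. The gene that passed as lower was CYBA, a subunit of the NADPH oxidase and the most abundant of the list in Ctrl, with 320 ± 30.6 CPM in Ctrl and 213 ± 13.2 CPM with WNK463 (SD, n = 3 each) and a log2 fold change of -0.59 (adjusted p = 1.71e-07, edgeR). CHI3L1 was 155 CPM in Ctrl and 1012 CPM with WNK463, MMP9 0.462 and 5.75 CPM and MMP25 5.88 and 16.2 CPM. CHI3L1, MMP9 and MMP25 are also made by macrophages or monocytes. Among granule genes of eosinophils, basophils and mast cells, only 3 of 11 could be tested, all of which passed as higher, and TPSB2, a mast cell tryptase, was called higher (0.495 and 3.23 CPM). MMP9, 1 other called gene of its list and TPSB2 had few counts in Ctrl and passed the filter by their counts with WNK463, while genes low in both groups were not tested, so the shares of higher genes on these lists hold for the tested genes only. Among those of cytotoxic cells, 2 of 9 were tested and both passed as higher. CTSW was called higher (3.18 and 6.44 CPM), with 1.02 on the log2 scale, a call that ended without Ctrl replicate 3 (0.94) and without WNK463 replicate 3 (0.96).

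The genes that process and sort granule proteins moved in both directions. CTSC, which encodes the cathepsin C that activates ELANE, PRTN3 and CTSG, was 213 ± 11.0 CPM in Ctrl and 280 ± 6.42 CPM with WNK463 (SD, n = 3 each) and passed as higher, with 0.40 on the log2 scale (adjusted p = 1.00e-06, edgeR). CTSH, another target of cystatin F, was called higher with a log2 fold change of 1.53. Of 19 tested genes for granule sorting, maturation and release, 6 passed as higher and 8 as lower, with a median of -0.07, which became 7, 3 and 0.08 with library totals, and STX11, a syntaxin of granule release, was called higher (1.37). Of 15 tested genes that build the chondroitin sulfate chains of serglycin, 6 passed as higher and 2 as lower, with a median of 0.14. With library totals these became 8, 1 and 0.29. For 2 of the genes that passed with TMM scaling, the pass ended with a sample left out. CHPF, a subunit of the chain polymerase, passed with 0.81.

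The lists also held protease inhibitors and the partners of MPO and CFD. SERPINB1, the cytosolic inhibitor of ELANE, PRTN3 and CTSG, was 80.5 ± 3.40 CPM in Ctrl and 117 ± 4.75 CPM with WNK463 (SD, n = 3 each) and passed as higher, with 0.54 on the log2 scale (adjusted p = 9.13e-08, edgeR). SERPINA1 passed as higher with 0.84, and over 8 tested inhibitor genes 4 passed as higher and 1 as lower, with a median of 0.20, or 6 and 0 with library totals. Of 12 tested genes for heme synthesis and MPO folding, 2 passed as higher and 5 as lower, or 7 and 5 with library totals. CALR, the calreticulin that binds the MPO precursor, was called lower, with 1175 ± 33.0 CPM in Ctrl, 512 ± 14.5 CPM with WNK463 and a log2 fold change of -1.20 (adjusted p = 2.05e-13, edgeR), and PDIA3 passed as lower with -0.63. For the alternative complement pathway, in which CFD acts, 6 of 7 tested genes passed as higher and 0 as lower, or 4 of 5 and 0 with at least 10 counts in every sample, a filter that leaves out C3AR1. The share of all tested genes that passed as higher was 35.5%, and 1 of the 6 passes ended with a sample left out. C3, the component that the convertase formed with factor D cleaves, was 8.28 CPM in Ctrl and 58.1 CPM with WNK463 (log2 fold change 2.81), and C3AR1, a receptor for its fragment, 0.376 and 3.70 CPM. In the ribonuclease family with its inhibitor, 1 of 4 tested genes passed as higher and 2 as lower.

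**Figure D5:**
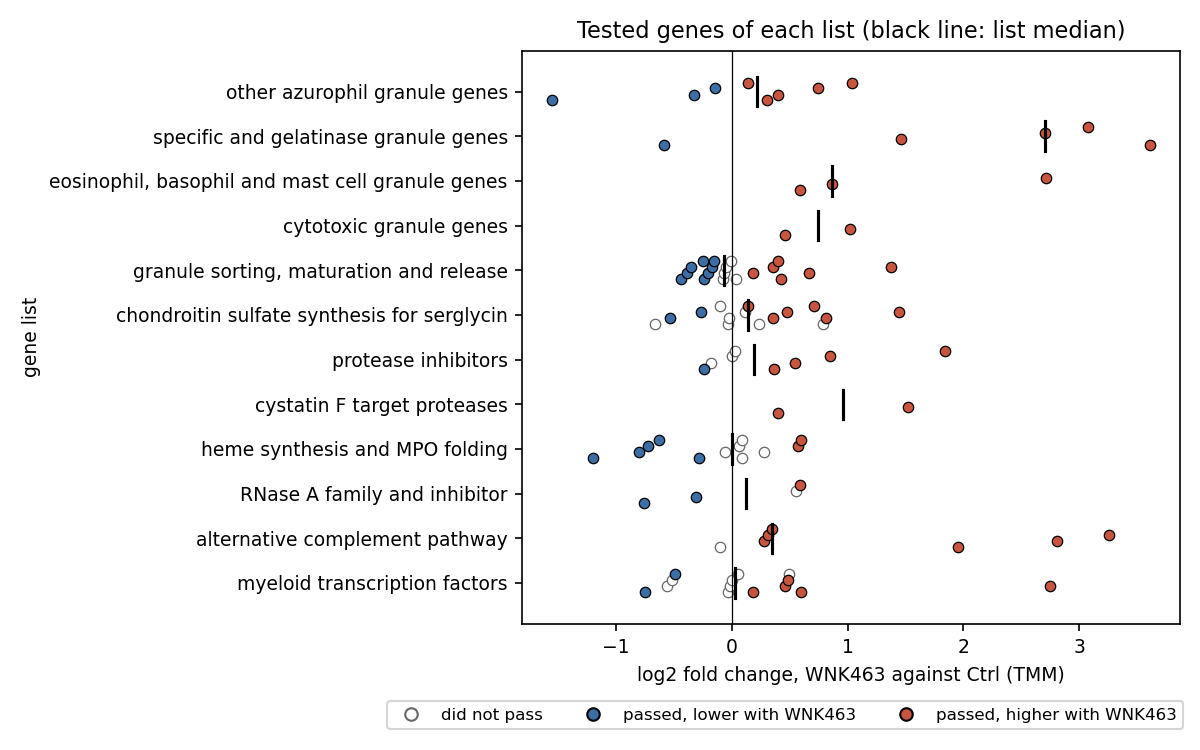
Log2 fold change of WNK463 against Ctrl (horizontal axis, TMM scaling) for the tested genes of 12 lists around the granule genes; each point is a gene, filled where it passed and open where it did not, and black lines are list medians. PRSS57 at -1.55 and CALR at -1.20 are the 2 genes called lower.

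The myeloid transcription factors known to act on the granule genes differed among themselves. SPI1, which encodes PU.1, was 218 ± 3.99 CPM in Ctrl and 218 ± 4.46 CPM with WNK463, and GFI1, a repressor of ELANE, 223 ± 7.49 and 221 ± 3.74 CPM (SD, n = 3 each). With TMM scaling neither passed, at 0.00 and -0.01, whereas with library totals both passed as higher, at 0.15 and 0.14. CEBPA and RUNX1 passed as higher, with 0.18 and 0.46, and MYB and IRF8 passed as lower, with -0.49 and -0.75. CEBPE did not pass, at 1.01 ± 0.158 and 1.43 ± 0.530 CPM. Over 14 tested factors, 5 passed as higher and 2 as lower, with a median of 0.03, or 8 and 2 with library totals.

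Markers of cell types that differ in granule content differed among themselves. Of 7 tested macrophage markers, 5 were called higher, beside 9.62% of all tested genes, and 2 did not pass. All of the 5 except MS4A7 had few counts in Ctrl. With at least 10 counts in every sample, 1 of 2 was called, beside 11.2% of all genes tested that way in either direction. The summed level of the 10 on the list was 20.9, 21.0 and 20.0 CPM in Ctrl and 67.8, 69.5 and 68.8 CPM with WNK463. MS4A7 was the most abundant of them, with 16.9 and 48.0 CPM, C1QA was 0.985 and 13.1 CPM, and CD163 and MRC1 were at or near 0 in both groups. Of 5 tested monocyte markers, 3 passed as higher and 0 as lower (60%, beside 35.5% of all tested genes as higher and 70.8% in either direction), and the 11 on the list summed to 624, 623 and 671 CPM in Ctrl and 757, 776 and 760 CPM with WNK463. Most of that sum was MS4A6A, with 527 and 589 CPM. It passed as higher with 0.16 on the log2 scale, a pass that ended without Ctrl replicate 2 (0.12). CSF1R rose with a log2 fold change of 0.97 and S100A9 with 1.46, while CD14 and VCAN stayed near 0.

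Neutrophil markers summed to 121 ± 1.84 CPM in Ctrl and 130 ± 4.48 CPM with WNK463 (SD, n = 3 each), mainly CSF3R, and FCGR3B and CEACAM8 were at 0. All 3 tested neutrophil markers passed, 2 as higher and 1 as lower, and 1 was called higher. Markers of progenitors and blasts summed to 573 ± 24.0 and 557 ± 0.834 CPM, mainly FLT3, with CD34 near 0. Of 6 tested, 3 passed as higher and 2 as lower, with a median log2 fold change of 0.21, or 4 and 1 with library totals, and 1 was called higher, a call that did not hold with each sample left out. Those of megakaryocytes and platelets summed to 17.5 ± 2.31 and 43.3 ± 1.06 CPM, nearly all ITGA2B, with PF4 at 0. Markers of erythroid, B and T or NK cells summed to less than any other marker list in each group, at 0.317, 1.93 and 1.07 CPM in Ctrl and 0.350, 2.98 and 0.485 CPM with WNK463. The 1 tested B cell marker passed as higher (0.95 on the log2 scale), and the 1 tested T or NK cell marker was called lower (-1.32). What part cell state had in the lower LYZ, MPO, PRTN3 and ELANE was not tested.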

How the data were processed

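RNA-seq was made from MV4-11 cells, 3 Ctrl and 3 WNK463 samples, grouped by their labels. The authors deposited estimated counts per gene, rounded to whole numbers (62 values were 0 beside a TPM above 0), and TPM values per sample. Their processing notes name fastp, Bowtie2, HISAT2, StringTie, RSEM, DESeq2 and edgeR on GRCh38, with no versions; strand and annotation release are not given in the sources used here. The deposited table also holds the authors' group means, fold changes and p-values, which were not used.

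The estimated counts were used as deposited and tested with edgeR 4.0.16 in R 4.3.3 (TMM, filterByExpr, quasi-likelihood test, Benjamini-Hochberg adjustment over 11973 genes; 4605 genes had no counts). CPM use TMM library sizes, with factors from 0.944 to 0.952 in Ctrl and from 1.05 to 1.06 with WNK463. Standard errors were derived from each log2 fold change and its F statistic. The biological coefficient of variation from the common dispersion was 5.21%, and replicate pairs differed by more than sampling noise (chi-square per degree of freedom from 2.62 to 7.23). Limits from counts cover counting error only. The procedure was checked on simulated data, and no outcome of that check is given here.

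The genes and lists were chosen with earlier results of these data known. Named genes are the 10 granule genes, called list genes with a mean of at least 1 CPM (at most 5 per direction and list), CTSC, SPI1, CEBPA, CEBPE, GFI1, RUNX1, MYB and SERPINB1, the 3 nearest protein-coding genes on each side, and the 5 genes most like LYZ (mean of at least 10 CPM, log2(CPM + 0.5)). 1 called list gene that met this rule is not reported here, and 4 called list genes had lower means. SERPINA1, IRF8, CHPF, PDIA3, CYBA and single markers were named after their values were seen. Neighbours and promoters came from RefSeq (GRCh38.p14), overlaps from GENCODE 29. Alternatives were DESeq2 1.42.0, library totals, other filters, the replicate number as a block, limma 3.58.1 on log2(TPM + 1) and log2(TPM + 0.1), no fold limit, and each sample left out. A planned comparison of protein sequences was not made.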

Additional observations from a re-analysis of the deposited data

How the results depend on the processing

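The 1817 called genes (1152 higher, 665 lower) became 1155 with limma on log2(TPM + 1), 1151 with the same and no filter, and 8473 with no limit on the fold change. Genes called higher became 740 with at least 10 counts in every sample and 4251 with no fold limit. Genes called lower became 269 with limma on log2(TPM + 1), 268 without its filter, 394 with log2(TPM + 0.1) and 4222 with no fold limit. Of the list genes, 17 were called (15 higher, 2 lower). These became 9 and 7 higher with at least 10 counts in every sample, which leaves out genes low in either group, 5 lower with no filter, and 67, 43 and 24 with no fold limit. The other 75 of 90 counts stayed within 1.5 times. Except where the setting's construction shows it, the cause was not tested.

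The log2 fold changes of the 10 granule genes moved by less than 1 SD between replicates in 104 of 140 combinations of gene and alternative and by more in 36. LYZ, MPO, PRTN3 and ELANE kept their sign in all alternatives. LYZ lay between -2.26 and -2.02 over all alternatives. Of 36 other named genes, GFI1 changed sign and passed with library totals (0.14) and with limma on log2(TPM + 1) with and without a filter (0.13 each) and on log2(TPM + 0.1) (0.13). SPI1, at 0.00, passed with library totals (0.15) and with the same limma settings (0.19 each). MS4A6A did not pass without Ctrl replicate 2 (0.12).

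Replicate numbers did not pair the samples, as same-numbered samples had correlated deviations of 0.01, 0.02 and -0.06. The replicate block gave 1818 called genes, 1155 of them higher. Low counts limit MPO and CST7.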
